A study of Mus musculus with 36 samples.

Results

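The 6 genes described here are Cirbp and Rbm3, which encode the cold-inducible RNA-binding proteins, and Clk1, Clk2, Clk3 and Clk4, which encode the CDC-like kinases. They were taken by name: a probe counted as theirs when the gene name in the scanner file was 1 of these 6 symbols. This gave 16 probes for 6 of the 37061 genes on the array, 3 for Cirbp, 4 for Rbm3, 2 for Clk1, 3 for Clk2, 1 for Clk3 and 3 for Clk4. All 16 probes and all 6 genes passed the filter on dim signals, which left 24097 genes and 36550 probes to test. A gene was read from its brightest probe (probe 1 here), and its other probes are described where they depart from it.

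Liver RNA of 36 male C57Bl/6J mice was hybridised to 1-colour Agilent arrays, 1 array per liver and 6 per group. AAKO mice lacked ATGL, the lipase that starts the breakdown of stored triglyceride, in white adipose tissue; CTRL mice were their controls, and the promoter that drove the deletion and the age of the mice are not given in the sources used here. Both genotypes were fed ad libitum, fasted for 24 h, or given the beta3 adrenergic agonist CL316243 by gavage at 3 mg/kg in a carboxymethyl cellulose vehicle at ZT10 while fed; a gavage of vehicle is not recorded for the other groups. All livers were taken at ZT16, in the dark phase, from mice housed at 21-23°C. By the labels, fed mice came from experiment 2 and all other mice from experiment 1. Feeding state or CL316243 and the experiment therefore cannot be told apart in any comparison with a fed group. The comparisons of AAKO with CTRL, and of fasted with CL316243, lie within 1 experiment.

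CIRBP and RBM3 are small glycine-rich proteins that hold an RNA recognition motif. Their messages rise in cells kept a few degrees below body temperature and fall in heat, and both bind many messages, those of clock genes among them. The CLK kinases phosphorylate the arginine-serine domains of SR proteins, which select splice sites, and CLK activity itself is known to change with small shifts of temperature. In liver, CLK2 is known as a kinase that insulin and refeeding induce and that restrains glucose production.

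The sequences shown are those of probes of the same gene that were called in opposite directions in some comparison, since the results turn on where each probe lies. Those of the promoters whose letters hold a searched motif are shown as well. The first 30 of the 60 letters of these probes are shown, brightest probe of each gene first.
Cirbp probe 1: ccatggggagcatagcagtccgggaggctg
Cirbp probe 2: cttctgtggaaaagataaagaagctgggct
Rbm3 probe 1: atggccagaaagtgatttctgaatgtacct
Rbm3 probe 4: tgagctatctccctttatttttaaggtcag
Clk4 probe 1: aggggtcttctgtgtacttctctaggagca
Clk4 probe 3: taaattcatgttactggagtccttaaagga

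The files place the probes on the mouse genome build mm9, and an annotation of that build was not used here, so exon, intron and UTR are not stated. Cirbp probe 1 covers 79634233 to 79634292 on the plus strand of chromosome 10, and Cirbp probe 2 lies 1129 bases downstream, at 79635422 to 79635481. The file assigns that second probe to an Ensembl transcript of Cirbp and the first to the RefSeq one. Rbm3 probe 1 covers 7719656 to 7719715 on the minus strand of chromosome X. Rbm3 probe 4 lies 3398 bases downstream of it along that strand, at 7716198 to 7716257, and the file assigns it to another RefSeq transcript of Rbm3 than probes 1 to 3. Clk4 probe 1 covers 51094929 to 51094988 on the plus strand of chromosome 11. Clk4 probe 3, also assigned to an Ensembl transcript, lies 9245 bases upstream, at 51085624 to 51085683.

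Promoter windows of 300 bases (ending 50 bases after the start site, from RefSeq on GRCm38.p6) were given for 4 of the 6 genes: Cirbp, Clk2, Clk3 and Clk4. Their coordinates are of another build than those of the probes. On both strands 3 motifs were searched, none of which overlapped another in these windows: TCCCCGCC, reported as a mild cold response element of Cirbp, the cyclic AMP response element TGACGTCA, and GAANNTTC, the core of a heat shock element. The first Cirbp window holds TCCCCGCC at position -247 from the start site, and the Clk4 window holds TGACGTCA at position -65; both are in capitals. Of 32851 windows, 5.38% hold TCCCCGCC, 1.79% hold TGACGTCA and 7.86% hold GAANNTTC. The second Cirbp window, Clk2 and Clk3 hold none of the 3. A match is a description of the letters only.
Cirbp promoter, chr10:80167589-80167888, plus strand: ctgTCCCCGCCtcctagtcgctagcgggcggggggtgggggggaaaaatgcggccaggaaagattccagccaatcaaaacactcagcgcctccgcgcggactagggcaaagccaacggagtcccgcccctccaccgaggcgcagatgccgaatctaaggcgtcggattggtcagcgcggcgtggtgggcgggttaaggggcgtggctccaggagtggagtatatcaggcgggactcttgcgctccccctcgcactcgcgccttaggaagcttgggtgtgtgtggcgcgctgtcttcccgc
Clk4 promoter, chr11:51262864-51263163, plus strand: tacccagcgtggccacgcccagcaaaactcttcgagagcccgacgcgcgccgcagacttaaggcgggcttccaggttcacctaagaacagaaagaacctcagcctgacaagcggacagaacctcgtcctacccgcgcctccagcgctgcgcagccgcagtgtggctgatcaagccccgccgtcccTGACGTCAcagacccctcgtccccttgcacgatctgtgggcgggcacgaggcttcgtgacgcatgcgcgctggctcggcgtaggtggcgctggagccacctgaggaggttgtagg

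Levels are log2 signals minus the array's own 75th percentile of log2 signal, so 0 is the brightness of a probe at that percentile and 1 unit is a 2-fold difference. Levels of different genes are not compared, since they come from different probes. Every comparison was fitted with limma on all 24097 genes over 36 arrays with the wash batch as a covariate, and adjusted p-values are Benjamini-Hochberg over all of them; a gene was called at an adjusted p under 0.05. Across the arrays the 75th percentile lay between 195.9 and 281.1 intensity units, and 58.5% to 65.7% of probes were well above background. Summed hepatocyte markers spanned 12.02 to 12.34 over all 36 arrays. Of the 5 adipocyte markers, Lep and Plin1 were well above background on 36 arrays, Retn on 32, Adipoq on 21 and Cfd on 15. The deletion is in adipose tissue, so no liver signal checks the genotype labels. Nothing in the labels says more of how the mice were grouped, and p-values weigh a difference of means against the spread between these livers within groups. In whole liver, fewer cells of a type and less RNA per cell cannot be told apart.

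Cirbp was high in fasted livers and low in fed ones, with CL316243 livers in between. In CTRL mice its level was 0.66, 1.28 and 1.70 (lowest, median and highest of 6) in the fed group, 4.45, 4.62 and 5.10 in the fasted group and 1.86, 2.2 and 2.38 after CL316243. In AAKO mice it was 0.27, 1.08 and 1.71 fed, 5.37, 5.54 and 5.61 fasted and 1.03, 1.66 and 2.94 after CL316243. Every fasted liver lay above every fed and every CL316243 liver, and every AAKO fasted liver lay above every CTRL fasted liver. The SD over livers was 0.09 in the AAKO fasted group against 0.59 and 0.69 in the AAKO fed and CL316243 groups.

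In CTRL mice Cirbp was 10.8-fold higher fasted than fed (log2 difference 3.43 ± 0.23 SE, adjusted p = 4.26e-13, limma), and in AAKO mice 22.1-fold (4.46 ± 0.23, adjusted p = 2.18e-16). Within experiment 1, fasted livers exceeded CL316243 livers by 2.50 ± 0.23 in CTRL mice (5.66-fold, adjusted p = 7.17e-10) and by 3.74 ± 0.23 in AAKO mice (13.3-fold, adjusted p = 1.75e-14). Fasted AAKO livers held 1.78 times the Cirbp signal of fasted CTRL livers (0.83 ± 0.23, adjusted p = 0.00361). The fasting difference was larger in AAKO than in CTRL mice by 1.03 ± 0.33 (interaction, adjusted p = 0.0154), in which an experiment effect shared by both genotypes cancels. Against CL316243 the same interaction was 1.24 ± 0.33 (adjusted p = 0.00433). These contrasts share the fasted groups. Within each wash batch alone, the genotype difference in fasted livers was 0.89 (adjusted p = 0.0509) in batch 1 and 0.77 (adjusted p = 0.0893) in batch 2, and the interaction with fasting 1.29 (adjusted p = 0.0696) and 0.77 (adjusted p = 0.296), none of them called. With the median over the 3 Cirbp probes in place of probe 1, the fasting differences were 0.81 and 1.64, called in both genotypes.

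CL316243 livers of CTRL mice held more Cirbp than fed ones, without overlap, by 0.93 ± 0.23 (1.91-fold, adjusted p = 0.00368). Within each wash batch alone this was 0.83 (adjusted p = 0.147) in batch 1 and 1.04 (adjusted p = 0.0767) in batch 2, neither called. In AAKO mice the difference was 0.73 ± 0.23 (1.65-fold, adjusted p = 0.0174), and the livers overlapped. It missed the threshold without AAKO fed replicate 4 (0.60, adjusted p = 0.0641), AAKO fed replicate 6 (0.58, adjusted p = 0.0557) or AAKO CL316243 replicate 1 (0.51, adjusted p = 0.0671). It also missed the threshold within batch 1 (0.93, adjusted p = 0.0517) and batch 2 alone (0.4, adjusted p = 0.554). With only its own groups fitted it was 0.71 (adjusted p = 0.161). With the median over the 3 Cirbp probes in place of the brightest the CTRL difference was 0.22 (adjusted p = 0.288) and the AAKO difference -0.05 (adjusted p = 0.839), neither called. AAKO and CTRL livers were not called different for Cirbp when fed (-0.20 ± 0.23, adjusted p = 0.908) or after CL316243 (-0.41 ± 0.23, adjusted p = 0.219). Without AAKO CL316243 replicate 1, whose level was the 2.94 above, the latter became -0.62 (adjusted p = 0.0305).

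Rbm3 rose on fasting by far less than Cirbp, and after CL316243 it lay at or below the fed level. In CTRL mice its level was 3.29, 3.57 and 3.90 fed, 3.84, 4.18 and 4.6 fasted and 2.57, 2.97 and 3.25 after CL316243. In AAKO mice it was 3.23, 3.56 and 3.83 fed, 4.32, 4.58 and 4.73 fasted and 2.94, 3.14 and 3.99 after CL316243. All CTRL CL316243 livers lay below all CTRL fed livers, and all fasted livers of a genotype lay above all its CL316243 livers. The fasted and fed CTRL livers overlapped at their edges.

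Fasted minus fed, Rbm3 differed by 0.64 ± 0.15 in CTRL mice (1.56-fold, adjusted p = 0.000711) and by 1.05 ± 0.15 in AAKO mice (2.07-fold, adjusted p = 2.87e-07). CL316243 minus fed, it fell by 0.62 on the log2 scale in CTRL mice (SE 0.15, adjusted p = 0.00244). Within wash batches 1 and 2 alone it was -0.65 and -0.6 (adjusted p = 0.0963 and 0.0538), neither called. In AAKO mice that difference was -0.26 ± 0.15 and was not called (adjusted p = 0.189), except without AAKO CL316243 replicate 1 (-0.40, adjusted p = 0.0236). CL316243 livers of CTRL mice had more Cirbp and less Rbm3 than fed livers on the same arrays. Fasted minus CL316243, Rbm3 differed by 1.26 ± 0.15 in CTRL and 1.31 ± 0.15 in AAKO mice (adjusted p = 5.30e-08 and 5.34e-09). The genotype difference in fasted livers, 0.34 ± 0.15, missed the threshold (adjusted p = 0.0599). It passed without CTRL fasted replicate 5 (0.41, adjusted p = 0.0293) or AAKO fasted replicate 3 (0.40, adjusted p = 0.0355). It also passed with another background correction (normexp, 0.36, adjusted p = 0.0342) and in the authors' deposited value table (0.36, adjusted p = 0.0285). With only these groups fitted it was 0.34 (adjusted p = 0.0373), and with the replicate number as a block 0.34 (adjusted p = 0.0401). The other alternatives of processing left it uncalled. Neither interaction was called for Rbm3 (fasted against fed 0.41 ± 0.21, adjusted p = 0.141).

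**Figure D1:**
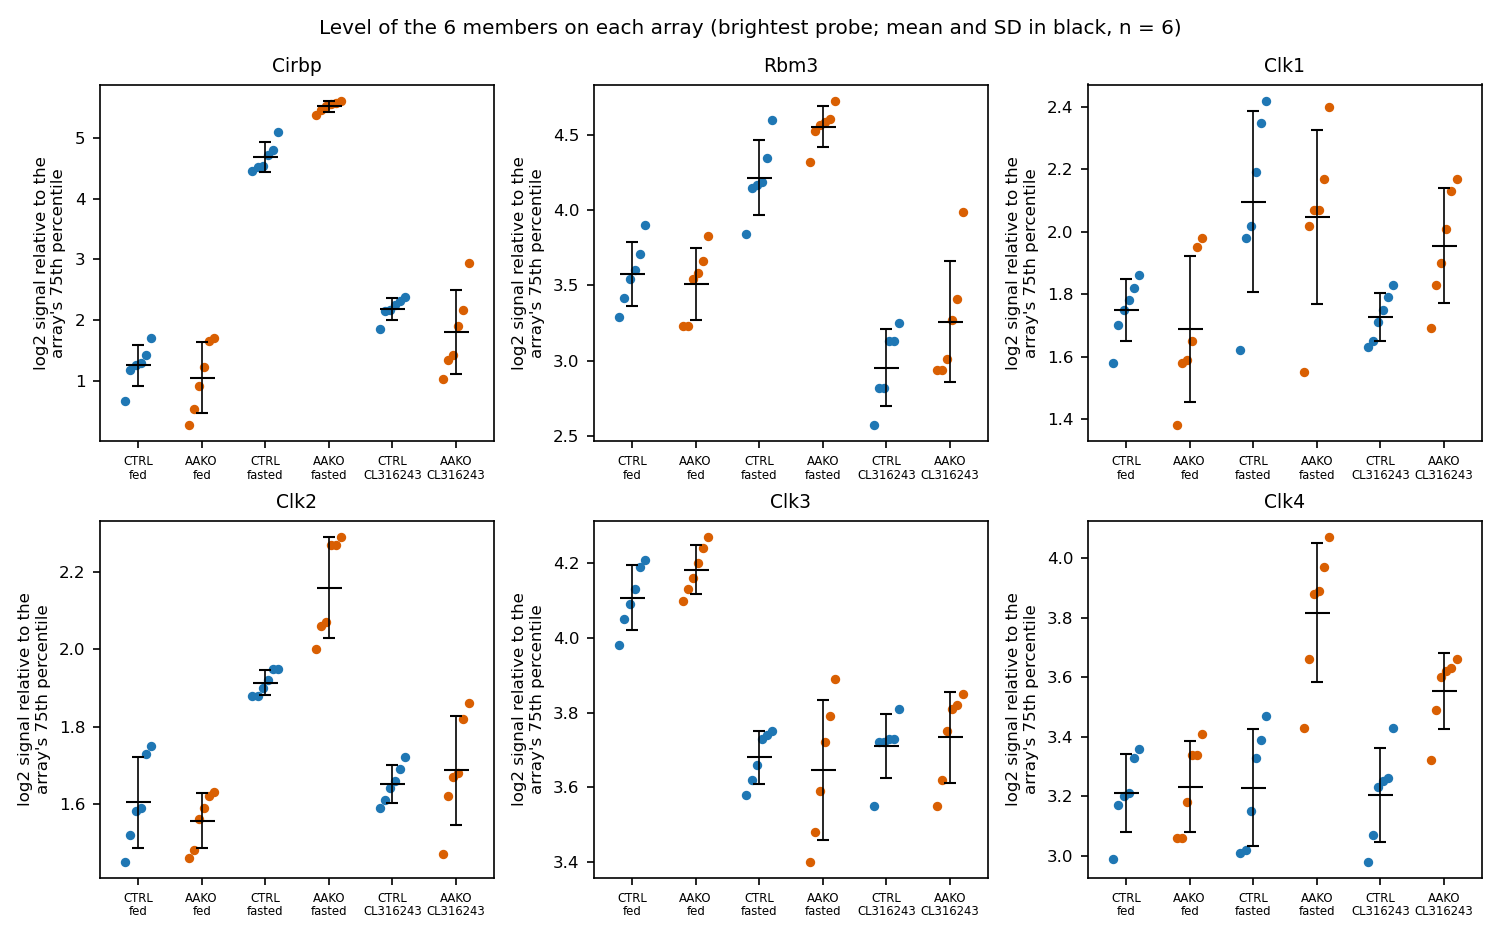
Level of each gene on each of the 36 arrays, as log2 signal relative to the array's 75th percentile, by group (blue CTRL, orange AAKO; black, mean and SD of 6). Cirbp spans 0.27 to 2.94 in the fed and CL316243 livers and 4.45 to 5.61 in the fasted ones, while the vertical scales of the other panels cover a much smaller range.

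Clk2, the liver kinase named above, was higher in fasted than in fed livers of both genotypes. Its level was 1.45, 1.59 and 1.75 in CTRL fed, 1.88, 1.91 and 1.95 in CTRL fasted and 1.59, 1.65 and 1.72 in CTRL CL316243 livers. In AAKO mice it was 1.46, 1.57 and 1.63 fed, 2.00, 2.17 and 2.29 fasted and 1.47, 1.67 and 1.86 after CL316243. Every AAKO fasted liver lay above every CTRL fasted liver, and every CTRL fasted liver above every fed liver. Fasted minus fed, the difference was 0.31 ± 0.06 in CTRL (1.24-fold, adjusted p = 0.000154) and 0.60 ± 0.06 in AAKO mice (1.52-fold, adjusted p = 5.89e-10), with an interaction of 0.30 ± 0.09 (adjusted p = 0.00971). The genotype difference in fasted livers was 0.25 ± 0.06 (1.19-fold, adjusted p = 0.00144). Within wash batch 1 alone this difference was 0.20 (adjusted p = 0.172) and the interaction 0.20 (adjusted p = 0.406), neither called. Both stayed called within batch 2, where CTRL fasting missed the threshold (0.22, adjusted p = 0.0532). With the median over the 3 Clk2 probes, CTRL fasting (0.17, adjusted p = 0.16), the genotype difference (0.14, adjusted p = 0.239) and the interaction (0.14, adjusted p = 0.49) missed the threshold. Probes 2 and 3 lie 3283 and 6319 bases upstream of probe 1. In fasted minus fed AAKO livers they rose by 0.31 ± 0.10 and 0.44 ± 0.11 (adjusted p = 0.00641 and 0.000595). Neither was called on CTRL fasting (0.17 and 0.13, adjusted p = 0.157 and 0.329). The same held for the genotypes when fasted (0.14 and 0.19, adjusted p = 0.233 and 0.133) and the interaction (0.14 and 0.31, adjusted p = 0.481 and 0.119). CL316243 livers were not called different from fed ones for Clk2 in CTRL (0.05 ± 0.06, adjusted p = 0.636) or AAKO mice (0.14 ± 0.06, adjusted p = 0.1), the latter passing without AAKO CL316243 replicate 6 (0.18, adjusted p = 0.0307). The interaction of fasted against CL316243, 0.21 ± 0.09 (adjusted p = 0.0742), was called without AAKO fasted replicate 3 (0.24, adjusted p = 0.0425), AAKO CL316243 replicate 2 (0.25, adjusted p = 0.0304) or AAKO CL316243 replicate 5 (0.24, adjusted p = 0.0425).

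Clk4 was higher in AAKO than in CTRL livers in both conditions of experiment 1, and no change with fasting was called in CTRL mice. Its level in CTRL livers was 2.99, 3.21 and 3.36 fed, 3.01, 3.24 and 3.47 fasted and 2.98, 3.24 and 3.43 after CL316243, ranges that nearly coincide. In AAKO livers it was 3.06, 3.26 and 3.41 fed, 3.43, 3.88 and 4.07 fasted and 3.32, 3.61 and 3.66 after CL316243. AAKO fasted replicate 3, at 3.43, was the only AAKO fasted liver below the highest CTRL fasted liver, replicate 2 at 3.47. AAKO exceeded CTRL by 0.59 ± 0.10 in fasted livers (1.5-fold, adjusted p = 1.03e-05) and by 0.36 ± 0.10 after CL316243 (1.28-fold, adjusted p = 0.00727). In fed livers the difference was 0.02 ± 0.10 (adjusted p = 0.985). Fasted minus fed, Clk4 differed by 0.02 ± 0.10 in CTRL mice (adjusted p = 0.904) and by 0.58 ± 0.10 in AAKO mice (adjusted p = 5.38e-06), and this interaction, 0.57 ± 0.14, was called (adjusted p = 0.002). In AAKO mice CL316243 livers exceeded fed ones by 0.33 ± 0.10 (adjusted p = 0.0102). Within wash batch 1 alone that difference was 0.24 (adjusted p = 0.256) and the interaction with fasting 0.42 (adjusted p = 0.173). The genotype difference after CL316243 was 0.19 there (adjusted p = 0.4), so none of these was called in batch 1. They stayed called within batch 2, and the genotype difference in fasted livers stayed called in both batches. Fasted minus CL316243 was 0.25 ± 0.10 in AAKO mice (adjusted p = 0.0303), lost without AAKO fasted replicate 1 (0.21, adjusted p = 0.0822), replicate 2 (0.23, adjusted p = 0.0667) or replicate 5 (0.23, adjusted p = 0.0637), or without AAKO CL316243 replicate 6 (0.21, adjusted p = 0.08).

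Clk3 was lower in all 4 fasted and CL316243 groups than in the fed groups. Its level was 3.98, 4.11 and 4.21 in CTRL fed and 4.10, 4.18 and 4.27 in AAKO fed livers. In CTRL mice it was 3.58, 3.69 and 3.75 fasted and 3.55, 3.72 and 3.81 after CL316243, and in AAKO mice 3.40, 3.66 and 3.89 fasted and 3.55, 3.78 and 3.85 after CL316243. No liver of experiment 1 reached the lowest fed liver of either genotype. Clk3 fell on fasting by 0.43 in CTRL and by 0.54 in AAKO mice (SE 0.07 in both, adjusted p = 6.52e-06 and 4.94e-08), and after CL316243 by 0.40 and 0.45 (SE 0.07, adjusted p = 7.90e-05 and 8.70e-06). Fasted and CL316243 livers, which share the experiment, differed by -0.03 ± 0.07 in CTRL (adjusted p = 0.782) and -0.09 ± 0.07 in AAKO mice (adjusted p = 0.281). For Clk3, the fall against fed livers and the step between the experiments cannot be told apart. No genotype difference was called for Clk3 (adjusted p = 0.878 fed, 0.716 fasted and 0.839 after CL316243).

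Clk1 was called higher on fasting in both genotypes, on both of its probes. Its level on probe 1 was 1.58, 1.76 and 1.86 in CTRL fed, 1.62, 2.10 and 2.42 in CTRL fasted and 1.63, 1.73 and 1.83 in CTRL CL316243 livers. In AAKO mice it was 1.38, 1.62 and 1.98 fed, 1.55, 2.07 and 2.40 fasted and 1.69, 1.95 and 2.17 after CL316243, and the fasted livers of both genotypes overlapped the fed ones. Fasted minus fed was 0.35 ± 0.12 in CTRL (1.27-fold, adjusted p = 0.0207) and 0.36 ± 0.12 in AAKO mice (1.28-fold, adjusted p = 0.0115). In CTRL mice the call was lost without CTRL fed replicate 2 (0.31, adjusted p = 0.0503), CTRL fasted replicate 3 (0.30, adjusted p = 0.0615) or CTRL fasted replicate 4 (0.28, adjusted p = 0.0688). It was also lost with only these groups fitted (0.35, adjusted p = 0.0505). Within wash batches 1 and 2 alone the fasting difference on probe 1 was not called in either genotype. It was 0.4 and 0.3 in CTRL (adjusted p = 0.134 and 0.24) and 0.28 and 0.44 in AAKO mice (adjusted p = 0.232 and 0.0578). Fasted minus CL316243 was 0.37 ± 0.12 in CTRL mice (adjusted p = 0.0176), lost without CTRL fasted replicate 3 (0.31, adjusted p = 0.0536) or 4 (0.30, adjusted p = 0.0595), and 0.09 ± 0.12 in AAKO mice (adjusted p = 0.54). Clk1 probe 2, 3642 bases upstream, showed less spread in fasted livers (SD 0.13 in CTRL and 0.16 in AAKO mice, against 0.29 and 0.28 on probe 1). On probe 2 all fasted livers of each genotype lay above the fed livers of that genotype. The difference was 0.45 ± 0.09 in CTRL and 0.71 ± 0.09 in AAKO mice (adjusted p = 0.000222 and 5.96e-08). On probe 2 AAKO fasted livers also exceeded CTRL fasted ones by 0.26 ± 0.09 (adjusted p = 0.0189), a call lost without AAKO fasted replicate 2 (0.23, adjusted p = 0.0518), where probe 1 gave -0.05 ± 0.12 (adjusted p = 0.777). Its interaction with fasting, 0.27 ± 0.13 (adjusted p = 0.118), was called without AAKO fed replicate 3 (0.34, adjusted p = 0.0299) or AAKO fasted replicate 3 (0.33, adjusted p = 0.0464).

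Counted over the 6 genes, fasted minus fed called 5 in CTRL mice, 4 up and 1 down, where 43.8% of all tested genes were called (19.7% higher, 24.1% lower). In AAKO mice it called all 6, 5 up and 1 down, against 63.6% of all genes (27.5% higher, 36.1% lower). In counts against fed livers, condition and experiment cannot be told apart. CL316243 against fed called 3 in CTRL mice, 1 up and 2 down, where 23.1% of all genes were called (10.4% higher, 12.7% lower). In AAKO mice it called 3, 2 up and 1 down, against 31.4% (15.5% higher, 15.9% lower). Fasted against CL316243 called 4 in CTRL mice, all higher in fasted livers, against 37.1% of all genes (17.8% higher, 19.3% lower), and 4 in AAKO mice, all higher, against 60% (25.9% higher, 34.1% lower).

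Genotype called 0 of the 6 in fed livers, where limma called 0.0788% of all genes (0.0415% higher, 0.0373% lower in AAKO); none of the 6 had an unadjusted p under 0.05 there, and the smallest was 0.298, for Clk3. It called 3 in fasted livers, Cirbp, Clk2 and Clk4, all higher in AAKO, against 49.2% of all genes (21.9% higher, 27.3% lower). After CL316243 it called 1, Clk4, which was higher, against 24.6% (13% higher, 11.6% lower). The interaction of genotype with fasting called 3, all positive, against 33.6% (15% positive, 18.6% negative). That with CL316243 called 0 by limma, against 10.9% (6.24% positive, 4.64% negative), with Clk4 alone at an unadjusted p under 0.05 (0.021). That of fasted against CL316243 called 1, Cirbp, against 31.8% (13.3% positive, 18.5% negative).

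The fasted and fed livers did not overlap for 3 of the 6 genes in CTRL mice (22.8% of all genes) and for 5 in AAKO mice (42.7%). CL316243 and fed livers did not overlap for 3 genes in CTRL mice (12.3% of all) and for 1, Clk3, in AAKO mice (14.9%). Fasted and CL316243 livers did not overlap for Cirbp, Rbm3 and Clk2 in either genotype (17.9% of all genes in CTRL, 37.3% in AAKO mice). The genotypes did not overlap for 0 genes when fed (0.693% of all), for Cirbp and Clk2 when fasted (21.2%) and for 0 after CL316243 (11.3%). With 6 genes, these counts are read only beside the background shares. The median log2 difference over the 6 was 0.33 for CTRL fasting, 0.59 for AAKO fasting and 0.30 for the genotypes when fasted, beside medians over all genes of -0.05, -0.10 and -0.03.

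**Figure D2:**
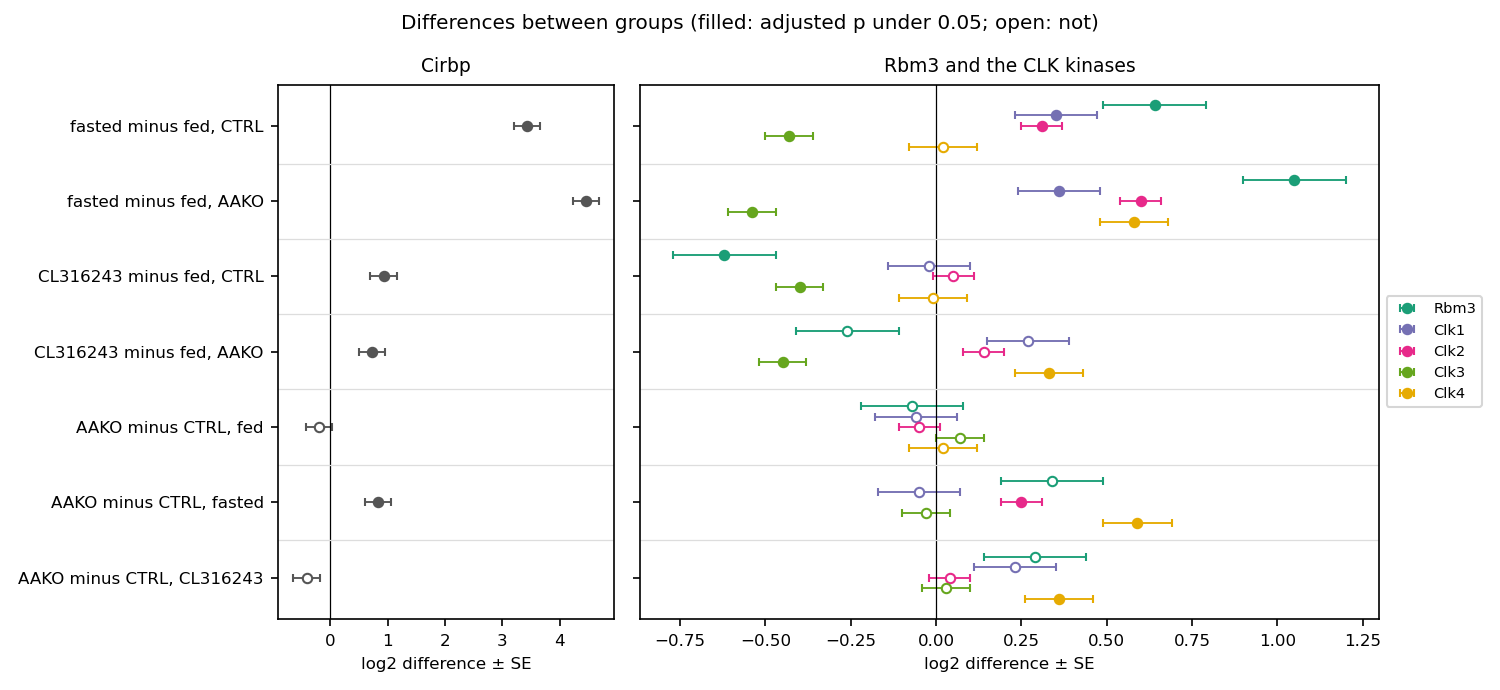
Log2 difference with its SE for Cirbp (left) and the other 5 genes (right) in 7 comparisons of groups of 6 livers; filled points have an adjusted p under 0.05. Cirbp stands at 3.43 and 4.46 on fasting, outside the range of the right panel, Clk3 is below 0 in all 4 comparisons with fed livers, and no point is filled for the genotypes when fed.

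The order of the 6 groups differed from gene to gene. For Cirbp it ran from AAKO fasted (mean 5.52) through CTRL fasted (4.69) to CTRL CL316243 (2.19), steps that were both called. The next neighbours, AAKO CL316243 (1.80), CTRL fed (1.25) and AAKO fed (1.05), were not called apart from the group above them (adjusted p = 0.219, 0.0867 and 0.908). For Rbm3 the only neighbours called apart were CTRL fasted (4.22) and CTRL fed (3.58). For Clk2 both top steps were called, AAKO fasted (2.16) over CTRL fasted (1.91) and CTRL fasted over AAKO CL316243 (1.68, adjusted p = 0.00493). For Clk4 both top steps were called, AAKO fasted (3.82) over AAKO CL316243 (3.55) and that over AAKO fed (3.23), and the remaining 4 groups lay between 3.20 and 3.23. For Clk3 the sole step called was from CTRL fed (4.11) to AAKO CL316243 (3.73, adjusted p = 0.000102). For Clk1 no step between neighbours was called, from CTRL fasted (2.10) to AAKO fed (1.69).

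Rbm3 probe 4 fell in fasted livers in which the other 3 Rbm3 probes rose. Its level was -0.89, -0.76 and -0.56 in CTRL fed and -0.80, -0.77 and -0.57 in AAKO fed livers, and -1.37, -1.07 and -0.72 in CTRL and -1.14, -0.62 and -0.30 in AAKO CL316243 livers. The 6 CTRL fasted livers, replicates 1 to 6, gave -1.60, -6.29, -2.18, -1.09, -2.77 and -2.71, and the 6 AAKO fasted livers gave -6.73, -3.95, -6.73, -5.40, -5.70 and -5.55. All fasted livers lay below all fed livers. The probe was well above background on 5 of 6 CTRL fasted arrays (not replicate 2) and on 1 of 6 AAKO fasted arrays (replicate 2), and on all arrays of the other groups, so most AAKO fasted values are at the floor of the measurement and have no order. In CTRL mice, in the fit over 36550 probes, it fell by 2.03 ± 0.50 on fasting (adjusted p = 0.00119), and by 1.31 without CTRL fasted replicate 2 (adjusted p = 0.00117). Fasted minus CL316243, within experiment 1, it was -1.71 ± 0.50 in CTRL mice (adjusted p = 0.00664), and -0.99 without CTRL fasted replicate 2 (adjusted p = 0.0145).

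For the AAKO fasted livers the size of the fall of Rbm3 probe 4 was not measured, since 5 of the 6 arrays give only an upper limit of its level. With each spot that was not well above background raised to the lowest signal among well-measured probes of its array, where that was higher than its own, the fall was 20.3-fold from fed and 21.0-fold from CL316243 livers (measured means -5.68 fasted, -0.71 fed and -0.66 after CL316243), and all fasted livers lay below all livers of both. These folds hold on the scale of the processed signal only, and they depend on the level chosen. The lowest well-measured signal of an array need not be the level at which this spot would be well above background. The folds are therefore neither a measured size nor a bound. With the normexp correction, which keeps dim signals from reaching so low, the difference of Rbm3 probe 4 on fasting was -0.97 in CTRL and -1.82 in AAKO mice, and in the authors' deposited value table it was -1.38 and -2.80. Both called it lower in both genotypes. The probe was called lower in AAKO than in CTRL fasted livers, which overlapped, and the interaction with fasting was called below 0. Both rest on values at the floor, so their size was not measured.

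Rbm3 probes 2 and 3, which lie 1069 and 1282 bases upstream of probe 1, moved with it. They rose on fasting by 0.66 and 0.69 in CTRL and by 1.03 and 1.06 in AAKO mice, and fell after CL316243 in CTRL mice by 0.63 and 0.65 (SE 0.17, all with an adjusted p under 0.05). Over the 7 comparisons, the ratio of either to probe 1 changed by at most 0.07. The ratio of probe 4 to probe 1 changed by -2.67 on fasting in CTRL mice (-2.45 with replicate 2 raised as above). In AAKO mice, with 1 of 6 fasted arrays well above background for probe 4, only the raised value is given, -5.39. The fasted and fed livers did not overlap in either genotype. The exact two-sided permutation test of 6 against 6 CTRL livers gave p = 0.00216, the smallest p it allows, and 0.0116 after Benjamini-Hochberg adjustment over the 70 such tests (10 probes in 7 comparisons). These ratio tests were chosen after the values had been seen.

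Cirbp probe 2 did not follow probe 1 either. Its level was -1.66, -1.52 and -1.18 in CTRL fed and -1.79, -1.07 and -0.76 in CTRL fasted livers, and -1.76, -1.54 and -1.18 in AAKO fed and -2.09, -1.50 and -1.22 in AAKO fasted livers. The fasted and fed livers overlapped in both genotypes. Fasted minus fed, it differed by 0.39 ± 0.17 in CTRL (adjusted p = 0.0546) and by -0.03 ± 0.17 in AAKO mice (adjusted p = 0.878). The CTRL difference was called without CTRL fed replicate 4 (0.44, adjusted p = 0.04) or CTRL fasted replicate 2 (0.52, adjusted p = 0.00805). With all arrays it was also called with normexp (0.24, adjusted p = 0.0433) and in the authors' deposited value table (0.38, adjusted p = 0.02). The interaction with fasting, -0.42 ± 0.23 (adjusted p = 0.166), was called without CTRL fasted replicate 2 (-0.56, adjusted p = 0.0427). Its ratio to probe 1 changed by -3.04 in CTRL and -4.50 in AAKO mice on fasting, without overlap (exact permutation p = 0.00216, adjusted p = 0.0116, both). In fasted livers probe 2 was lower in AAKO than in CTRL by 0.47 ± 0.17 on the log2 scale (adjusted p = 0.0192), where probe 1 was higher; this call was lost without CTRL fasted replicate 1 (-0.38, adjusted p = 0.0631), CTRL fasted replicate 4 (-0.39, adjusted p = 0.0624) or AAKO fasted replicate 5 (-0.37, adjusted p = 0.0692). Cirbp probe 3, 1277 bases upstream of probe 1, rose with it, by 2.96 ± 0.21 in CTRL and 3.93 ± 0.21 in AAKO mice on fasting and 0.81 ± 0.21 between the genotypes when fasted (adjusted p = 7.25e-13, 1.98e-16 and 0.00154). Its ratio to probe 1 changed by -0.47 and -0.54 on fasting (exact permutation adjusted p = 0.0319, both).

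In Clk4, probes 1 and 2 were higher in AAKO than in CTRL fasted livers and probe 3 was lower. Probe 3 lay at -2.77, -2.65 and -2.31 in CTRL fasted and -3.16, -2.91 and -2.71 in AAKO fasted livers, and at -3.04, -2.79 and -2.68 in CTRL fed and -3.09, -2.78 and -2.51 in AAKO fed livers. In fasted livers it was lower in AAKO than in CTRL by 0.35 ± 0.10 (adjusted p = 0.00408), although a few livers overlapped. Probe 2 was higher by 0.50 ± 0.09, without overlap (adjusted p = 3.34e-05). The ratio of probe 3 to probe 1 changed by -0.94 between the genotypes in fasted livers, where all AAKO livers lay below all CTRL livers (exact permutation p = 0.00216, adjusted p = 0.0116). The interaction of probe 3 with fasting, -0.38 ± 0.14 (adjusted p = 0.0363), missed the threshold on leaving out CTRL fed replicate 4 or 5, AAKO fed replicate 2, 4 or 5, CTRL fasted replicate 2 or 6, or AAKO fasted replicate 1 or 3, with values from -0.38 to -0.33. Against CL316243 the interaction was -0.55 ± 0.14 (adjusted p = 0.00344). With quantile scaling the interaction with fasting was -0.32 (adjusted p = 0.095), and in the authors' deposited value table that against CL316243 was -0.26 (adjusted p = 0.0536). Fasted minus fed in CTRL mice, probe 3 differed by 0.23 ± 0.10 (adjusted p = 0.063), which was called without CTRL fasted replicate 5 (0.27, adjusted p = 0.037). Ratios within Clk1 and Clk2 changed by less. The ratio of Clk1 probe 2 to probe 1 changed by 0.36 on fasting in AAKO mice, without overlap (exact permutation adjusted p = 0.0116). In CTRL mice it changed by 0.1 (adjusted p = 0.447), and between the genotypes when fasted by 0.31 (adjusted p = 0.0414). The ratio of Clk2 probe 2 to probe 1 changed by -0.29 on fasting in AAKO mice (adjusted p = 0.0202). Probes of different members shared runs of at most 9 letters.

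**Figure D3:**
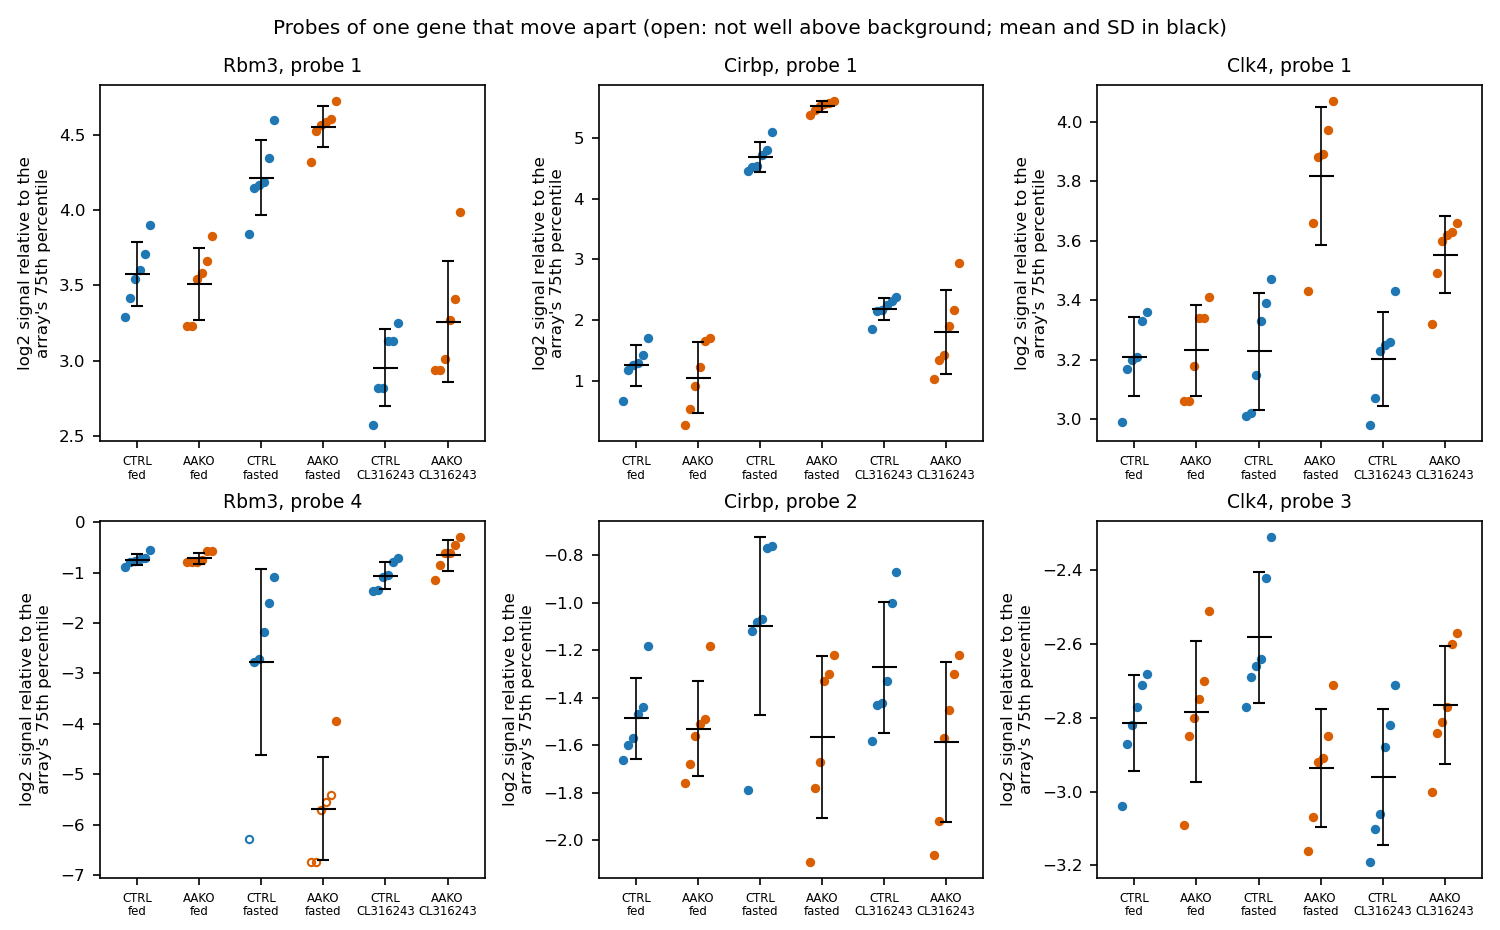
Log2 signal relative to the array's 75th percentile on each of the 36 arrays for the brightest probe (top row) and a second probe (bottom row) of Rbm3, Cirbp and Clk4; open points were not well above background, black marks are the mean and SD of 6. Rbm3 probe 4 is listed as low as -6.73, not well above background, in fasted livers where probe 1 rises to 4.73, and Cirbp probe 2 stays between -2.09 and -0.76 throughout.

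Counted over the 16 probes, 10 were called on fasting in CTRL mice (8 up, 2 down, where 43.9% of all probes were called) and 14 in AAKO mice (12 up, 2 down, 64.6%). Between the genotypes in fasted livers 9 were called, 6 higher and 3 lower in AAKO (50% of all probes). The 3 that were lower were Cirbp probe 2, Rbm3 probe 4 and Clk4 probe 3. In fed livers 0 of the 16 were called by limma (0.0958% of all probes), and after CL316243 2 were (23.7%). CL316243 minus fed called 6 in CTRL mice (2 up, 4 down, 23.5% of all probes) and 6 in AAKO mice (5 up, 1 down, 31.2%). Fasted minus CL316243 called 11 in each genotype (10 up, 1 down), against 36.9% of all probes in CTRL and 60.8% in AAKO mice, and the probe that was lower was Rbm3 probe 4 in both. The interaction with fasting called 7 (34.1%), that with CL316243 called 0 by limma (10.5%) and that of fasted against CL316243 called 4 (32.1%).

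The heat shock genes, whose chaperone products bind unfolded proteins, are known to rise in heat. Their list of 18 held 17 called genes in fasted minus fed CTRL livers, 16 lower and 1 higher, with a median of -1.16, where 43.8% of all genes were called, and 16 in AAKO livers, 14 lower and 2 higher, with a median of -1.27, against 63.6%. CL316243 minus fed, 14 were lower and 0 higher in CTRL mice (median -0.89, 23.1% of all genes called), and 13 were lower and 1 higher in AAKO mice (median -0.75, 31.4%). Medians over all tested genes were -0.05, -0.10, -0.03 and -0.01. Beside these, Cirbp rose by 0.93 and 0.73 after CL316243 and by 3.43 and 4.46 on fasting, in CTRL and AAKO mice. With the median over its probes, the Cirbp differences after CL316243 were 0.22 and -0.05, neither called. Rbm3 went the other way after CL316243, by -0.62 (called) and -0.26 (not called), and rose on fasting by 0.64 and 1.05. A link of the list with either gene was not tested. Since the fed livers belong to the other experiment, feeding and experiment cannot be told apart for this list either. Within experiment 1, fasted minus CL316243, 8 were lower and 0 higher in CTRL mice (median -0.22, 37.1% of all genes called), and 12 lower and 3 higher in AAKO mice (median -0.54, 60%), beside all-gene medians of -0.02 and -0.08.

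The called heat shock gene with the lowest value in CTRL fasting was Hspa1b at -3.86 ± 0.29 (adjusted p = 3.60e-12), level with Hspa1a at -3.86 ± 0.38 (adjusted p = 8.01e-10), and the highest was Hspa4 at 0.24 ± 0.07 (adjusted p = 0.00543). Both lowest genes encode inducible HSP70 and are nearly identical copies, so each probe may read both messages and their values are uncertain. In AAKO fasting the lowest was Hspa1b at -3.47 ± 0.29 and the highest Hspa4 at 0.43 ± 0.07 (adjusted p = 5.86e-12 and 2.19e-06). Hspa1a was not called there (-0.09 ± 0.38, adjusted p = 0.849), with 0.84, 1.47 and 2.26 in AAKO fed livers. Between the genotypes in fasted livers, 3 of 18 were higher and 7 lower in AAKO mice, where 49.2% of all genes were called. The highest was Hspa1a, at -2.61, -2.07 and -0.70 in CTRL and 1.05, 1.39 and 2.05 in AAKO fasted livers, a difference of 3.32 ± 0.38 without overlap (9.97-fold, adjusted p = 1.12e-08). Hspa1b lay at -0.43, 0.22 and 1.20 in CTRL and -0.20, 0.19 and 0.26 in AAKO fasted livers, which overlapped, and was not called. The lowest was Cryab, a small heat shock protein, at -0.80 ± 0.32 (adjusted p = 0.0381). After CL316243 the lowest was Hspa1a in CTRL mice (-3.60 ± 0.38, adjusted p = 4.51e-08) and Hspa1b in AAKO mice (-2.77 ± 0.29, adjusted p = 1.57e-08).

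The SR proteins, the substrates of the CLK kinases, moved in both directions. Of 12 tested (Srsf12 did not pass the filter), 7 were called on fasting in CTRL mice, 1 higher and 6 lower, where 43.8% of all genes were called, and 9 in AAKO mice, 2 higher and 7 lower, against 63.6%. Srsf5 was the highest in both, at 0.78 ± 0.08 and 1.12 ± 0.08 (adjusted p = 4.60e-09 and 3.61e-13). The lowest was Tra2a in CTRL (-0.87 ± 0.09, adjusted p = 4.73e-09) and Srsf1 in AAKO mice (-1.07 ± 0.10, adjusted p = 1.95e-11). Between the genotypes in fasted livers 4 were higher and 5 lower in AAKO (49.2% of all genes called), from Srsf1 at -0.76 ± 0.10 to Srsf7 at 1.05 ± 0.09 (adjusted p = 7.08e-08 and 1.00e-10). CL316243 minus fed, 2 were higher and 4 lower in CTRL mice (23.1% of all genes called), and 6 higher and 1 lower in AAKO mice (31.4%). Srsf5 was the highest in CTRL (0.44 ± 0.08, adjusted p = 2.00e-04) and Srsf3 in AAKO mice (0.58 ± 0.11, adjusted p = 0.000187), and the lowest were Srsf2 (-0.49 ± 0.10, adjusted p = 0.00042) and Tra2a (-0.29 ± 0.09, adjusted p = 0.0163). List medians were -0.24, -0.38, -0.06, -0.08 and 0.26 in these 5 comparisons, beside medians over all genes of -0.05, -0.10, -0.03, -0.03 and -0.01.

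Among the other kinases of SR proteins and the DYRK relatives of the CLKs, 7 of 9 were tested (not Srpk3 and Dyrk4). Dyrk2, a kinase of the DYRK family, had the highest called value on fasting in both genotypes. Its level was -0.52, -0.15 and -0.07 in CTRL fed and 1.27, 1.51 and 3.04 in CTRL fasted livers, and 3.29, 3.57 and 3.71 in AAKO fasted livers. These groups did not overlap. It was called on fasting at 1.92 ± 0.20 in CTRL and 3.80 ± 0.20 in AAKO mice and between the genotypes when fasted at 1.81 ± 0.20 (adjusted p = 3.12e-09, 2.92e-16 and 7.62e-09). Prpf4b was the lowest on fasting in both genotypes, at -0.71 ± 0.08 and -0.84 ± 0.08 (adjusted p = 1.59e-08 and 1.07e-10), and Dyrk3 the lowest between the genotypes, at -0.76 ± 0.20 (adjusted p = 0.00178). Of the 7, 2 were higher and 2 lower in CTRL fasting (43.8% of all genes called), 3 and 2 in AAKO fasting (63.6%), and 3 and 1 between the genotypes when fasted (49.2%), counts near those shares. After CL316243 4 were higher and 2 lower in CTRL mice (23.1% of all genes called) and 1 higher and 0 lower in AAKO mice (31.4%). List medians were -0.10, 0.13, 0.17, 0.37 and 0.04 in this order, beside -0.05, -0.10, -0.03, -0.03 and -0.01 over all genes. Dyrk1b was the highest after CL316243 in both, at 1.09 ± 0.18 and 0.57 ± 0.18 (adjusted p = 3.76e-05 and 0.0148), and Prpf4b the lowest in CTRL mice (-0.30 ± 0.08, adjusted p = 0.0061).

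The 7 cold shock domain genes, which bind RNA through another fold than CIRBP, had 1 higher and 3 lower on fasting in CTRL mice (43.8% of all genes called) and 1 and 4 in AAKO mice (63.6%), with medians of -0.16 and -0.19 beside -0.05 and -0.10 over all genes. Csdc2 was the highest (0.86 ± 0.15, adjusted p = 2.60e-05) and Carhsp1 the lowest (-0.35 ± 0.08, adjusted p = 0.000769) in CTRL mice, and Ybx3 (0.34 ± 0.09, adjusted p = 0.00157) and Carhsp1 (-0.84 ± 0.08, adjusted p = 1.21e-10) in AAKO mice. Between the genotypes in fasted livers 2 were higher and 4 lower (49.2% of all genes called), from Csdc2 (-0.81 ± 0.15, adjusted p = 4.78e-05) to Ybx3 (0.35 ± 0.09, adjusted p = 0.00161). Of 5 reported partners of CIRBP and RBM3, 2 were higher and 2 lower on fasting in CTRL mice (43.8% of all genes called), and 2 higher and 3 lower in AAKO mice (63.6%), with medians of 0.08 and -0.17. Clock, a core clock gene whose message CIRBP binds, was the highest in CTRL mice (0.64 ± 0.12, adjusted p = 5.59e-05), and Txn1, thioredoxin, the lowest in both (-0.72 ± 0.09 and -1.30 ± 0.09, adjusted p = 3.92e-08 and 3.72e-14). Sp1, a transcription factor reported at the Cirbp promoter, was the highest in AAKO mice (0.93 ± 0.09, adjusted p = 2.50e-10) and between the genotypes when fasted (0.56 ± 0.09, adjusted p = 8.33e-06).

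**Figure D4:**
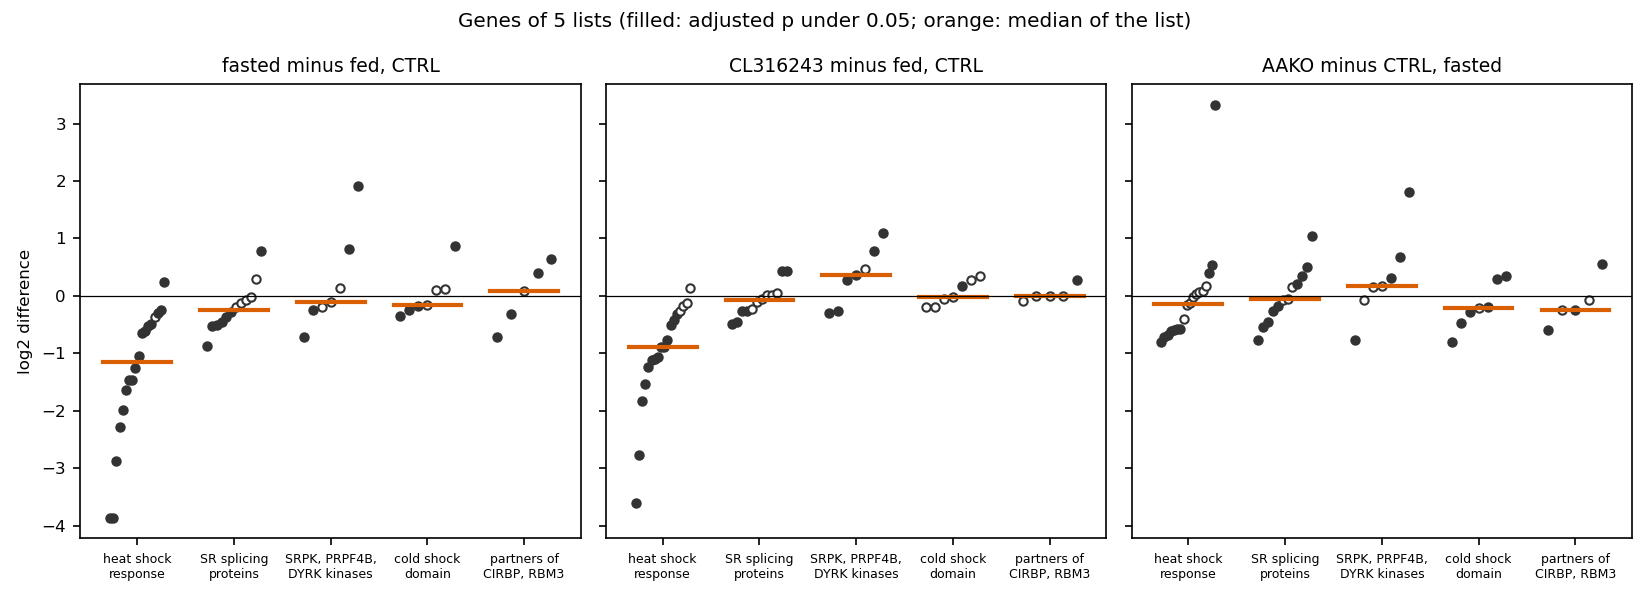
Log2 difference of each tested gene of 5 lists (18, 12, 7, 7 and 5 genes) in fasted minus fed CTRL, CL316243 minus fed CTRL, and AAKO minus CTRL fasted livers; filled points have an adjusted p under 0.05 and the orange bar is the list's median. The heat shock median lies at -1.16 and -0.89 in the first 2 panels and at -0.15 in the third, where Hspa1a stands alone at 3.32.

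Among markers of other liver cells, the share called between the fasted genotypes was below the 49.2% of all genes in every list but the hepatocyte and stellate cell ones. The summed neutrophil markers spanned 1.70 to 6.21 in CTRL and 3.36 to 6.87 in AAKO fasted livers, with 2 of 5 called higher, and the summed stellate cell markers spanned 6.39 to 6.72 and 6.78 to 7.18, with 2 of 5 higher and 1 lower. The endothelial list had 2 of 5 higher, the cholangiocyte list 2 of 5 lower, the lymphocyte list 1 of 4 lower, the Kupffer cell list none of 5 called, the adipocyte list 1 higher and 1 lower of 5, and the hepatocyte list 2 higher and 3 lower of 6. Hepatocyte markers summed to 12.02 to 12.14 in CTRL and 12.05 to 12.14 in AAKO fasted livers. Their part in the differences of Cirbp, Clk2 and Clk4 was not tested.

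The gene whose pattern over the 36 arrays was most like that of Cirbp was Haus2 (Pearson r = 0.982), followed by Arrdc4 (0.972) and 1700071A11Rik (0.971). For Rbm3 these were Gm9257 (0.915), Sin3b (0.909) and Ubxn6 (0.903), for Clk2 Iffo1 (0.93), Setd1a (0.923) and Ntmt1 (0.917), and for Clk4 Hbs1l (0.894), Map4k5 (0.883) and Ddx5 (0.88). For Clk3 they were Stim2 (0.941), Tk1 (0.901) and Prnp (0.898), and for Clk1 Gm10751 (0.765), BC049762 (0.756) and LOC105247581 (0.727). All values rest on the same 36 arrays and the same 6 groups, and are descriptions without a test. Once each group's mean was removed, the r with Haus2 fell to 0.754 and that with Arrdc4 to 0.561. Among the members themselves, Cirbp and Rbm3 had r = 0.80 over all arrays and 0.617 within groups, Cirbp and Clk2 0.873 and 0.0294, and Clk3 and Clk4 -0.23 and 0.635. The r of Cirbp with Clk2 thus came from the group means, while that of Cirbp with Rbm3 was also present among livers of the same group.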

How the data were processed

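The labels give 36 liver samples in 6 groups of 6. Agilent Feature Extraction 10.10.1.1 produced the deposited signal intensity of each spot, background-subtracted and detrended, per the file headers (array design 074809). The submitters' processing notes also name limma, with no version. The authors' deposited value table holds log2 values of 36898 probes; each column correlated best with its own array (r from 0.99957 to 0.99981), its column medians lie near 6.9, and its normalization and centring are not given in the sources used here. It served as an alternative.

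From the intensities, spots flagged as outliers (2701, 0.127%) were left out, the log2 processed signals were averaged per probe, and each array's 75th percentile was subtracted. A probe was kept when 5 or more of the 6 arrays in some group had it well above background, and a gene was read from its brightest probe. Models with the 6 groups and the wash batch were fitted with limma 3.58.1 (lmFit, eBayes) in R 4.3.3 to 24097 genes, and to 36550 probes, with Benjamini-Hochberg adjustment over each and a threshold of 0.05. The scripts were tested on simulated data. The number of arrays limits the precision.

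The members and lists were chosen with earlier results of these data known. Genes named were the members, in each list and comparison the called genes with the highest and the lowest difference, and the 3 genes with the highest r with each member. Hspa1a, Hspa1b and Dyrk2 values beyond these were chosen after they were seen, as were the ratios between probes, tested by exact permutation, the leaving out of arrays for single probes, and the raising of Rbm3 probe 4 spots to the lowest well-measured signal of their array. Alternatives changed the background correction, scaling, filter, probe choice, wash batch, slide, samples fitted and replicate block.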

Additional observations from a re-analysis of the deposited data

Results flagged for a closer look

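In 4 of 96 sets of 6 arrays (16 probes in 6 groups), 1 array stood apart from the rest; chance alone flags about 1 in 20 such sets. Rbm3 probe 4 was at -6.29 on CTRL fasted replicate 2, with the nearest array at -2.77. Cirbp probe 2 was at -1.79 on the same array, with the nearest at -1.12. Clk2 probe 3 was at -1.18 on AAKO fed replicate 3, with the nearest at -1.53. Clk3 was at 3.55 on CTRL CL316243 replicate 1, with the nearest at 3.72.

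The fasting difference was called different between the genotypes for 3 of the 6 genes (AAKO minus CTRL, limma's interaction over all genes or probes). It was larger in AAKO mice by 1.03 for Cirbp (adjusted p = 0.0154), 0.30 for Clk2 (adjusted p = 0.00971) and 0.57 for Clk4 (adjusted p = 0.002). On other probes of these genes it was 0.96 for Cirbp probe 3 (adjusted p = 0.0105), 0.53 for Clk4 probe 2 (adjusted p = 0.00173) and -0.38 for Clk4 probe 3 (adjusted p = 0.0363), and for Rbm3 probe 4 the fit gave -2.94 (adjusted p = 0.00144). Not called were Cirbp probe 2 (-0.42, adjusted p = 0.166) and Clk2 probes 2 and 3 (0.14 and 0.31, adjusted p = 0.481 and 0.119). Clk2 was also not called with the median over its probes (0.14, adjusted p = 0.49). Within wash batch 1 alone Cirbp, Clk2 and Clk4 were not called (adjusted p = 0.0696, 0.406 and 0.173), nor was Cirbp within batch 2 (adjusted p = 0.296). The call of Clk4 probe 3 was lost on leaving out single arrays, as given above. The difference of fasted from CL316243 livers also depended on genotype, by 1.24 for Cirbp (adjusted p = 0.00433), 1.1 for Cirbp probe 3 (adjusted p = 0.00421), -3.29 for Rbm3 probe 4 (adjusted p = 0.00051) and -0.55 for Clk4 probe 3 (adjusted p = 0.00344). Both values of Rbm3 probe 4 rest on AAKO fasted arrays of which only 1 of 6 was well above background, so they show a direction and no size.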

How the results depend on the processing

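Most values kept their direction and side of the threshold under the alternatives. The exceptions by number of members called were as follows. Within wash batch 1 alone, the count was 1 in place of 3 for the genotypes when fasted, 0 in place of 1 after CL316243, 3 in place of 5 for fasted minus fed in CTRL mice, 0 in place of 3 and 1 in place of 3 for CL316243 minus fed in CTRL and AAKO mice, 2 in place of 4 for fasted minus CL316243 in CTRL mice, and 0 in place of 3 and 0 in place of 1 for the interactions of genotype with fasting and with fasted against CL316243. Within wash batch 2 it was 3 for fasted minus fed and 1 for CL316243 minus fed in CTRL mice, and 0 for the last interaction. That interaction gave 2 with normexp and 2 with the authors' deposited value table. These batches hold fewer arrays; the cause of the other changes was not tested. Cirbp after CL316243 in AAKO mice reversed to -0.05 with the median over its probes. Leaving out 1 array at a time, the count ranged from 0 to 0 (fed) and 3 to 4 (fasted) and 1 to 2 (CL316243) for the genotypes, from 4 to 5 and 6 to 6 for fasted minus fed in CTRL and AAKO mice, from 3 to 3 and 2 to 4 for CL316243 minus fed, from 3 to 4 and 3 to 4 for fasted minus CL316243, and from 3 to 3, 0 to 0 and 1 to 2 for the interactions with fasting, with CL316243 and with fasted against CL316243. With the replicate number as a block (replicate block), Rbm3 in fasted livers was called between the genotypes (0.34, adjusted p = 0.0401) and no other member's call changed. Arrays of the same number did not deviate together (mean r -0.001 over 90 pairs, from -0.30 to 0.36), so they share only a number. Over all genes, fed livers gave 19 calls between the genotypes, 29 with normexp, 1 and 0 within the batches and 3 with only those groups fitted. The other counts over all genes fell within batches 1 and 2: fasted genotypes 11848 to 7782 (batch 2), CL316243 genotypes 5929 to 2968 and 1514, fasted minus fed in CTRL mice 10547 to 5955, CL316243 minus fed 5578 to 2090 and 1614 in CTRL and 7574 to 4664 and 2274 in AAKO mice, fasted minus CL316243 in CTRL mice 8938 to 4520, and the interactions 8104 to 5070 and 3121, 2622 to 459 and 484, and 7666 to 4709 and 3038. With the authors' deposited value table the median of all genes moved from -0.10 to 0.01 for fasted minus fed and from -0.08 to 0.05 for fasted minus CL316243 in AAKO mice.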
